A study of Caenorhabditis elegans with 4 samples.

Results

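Chromosome V of Caenorhabditis elegans carried 604 of the 3766 peaks in the authors' combined list of regions bound by a GFP-tagged homeodomain factor in L4 larvae. Its members are all peaks that this list places on V, chosen by chromosome alone and not by any measured value. ChIP replicate 1 had 424 of its 2778 peaks on V and ChIP replicate 2 had 115 of its 906. V thus held 16% of the combined list, 15.3% of replicate 1 and 12.7% of replicate 2.

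The data come from chromatin immunoprecipitation followed by sequencing (ChIP-seq) with a goat antibody against EGFP. All samples were L4 hermaphrodites of strain OP241, grown at 20 °C on HB101 bacteria, then fixed in 2% formaldehyde, which 100 mM Tris stopped. Every sample, inputs included, had the mutation unc119(ed3) and the transgene wgIs241, which holds ceh-38 fused to TY1, EGFP and FLAG together with unc119 and was introduced by particle bombardment into a single strain. There were 2 ChIP samples and 2 input samples, the inputs being total chromatin of the same lysates; no peak list of the inputs and no untagged strain was analysed here. The titles call the factor CEH-28 while the strain, genotype and design call it CEH-38, and the text therefore speaks of the tagged factor. The antibody is listed under the samples titled as input, and groups were taken from the titles. The design states the aim of locating where this factor binds in living animals. Whole animals were used, so a region bound in few cells and a region bound weakly in many cannot be told apart.

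CEH-38 is a ONECUT protein, a class that contacts DNA through a cut domain and a homeodomain together; in C. elegans, genes of the cut class are known for their part in the expression of genes shared by all neurons. CEH-28 belongs to another homeodomain class, NK-2, and is known from a pharyngeal neuron. In a ChIP experiment, DNA fragments held by the factor are recovered with it, and a peak is a stretch where they outnumber those of the control. Chromosome V is the longest chromosome of the worm. Worm autosomes have a gene-rich middle and arms with more repeats and more recombination, and V is known for its many chemoreceptor genes. Among the genes of the cut class, ceh-49 lies on V and ceh-38 on II in assembly WBcel235. The NK-2 gene ceh-28 lies on X. Peaks are named here by position in build WS180, and none was assigned to a gene, because no annotation of that build was used.

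Peaks on V were mostly narrow, with a minority of broad and highly significant regions. In the combined list they covered 267 kb, or 1.28% of the span from base 1 to the end of the last peak (20841214 bp). Their median width was 313 bp (quartiles 216 and 513 bp; range 9 to 3401 bp). On V, replicate 1 covered 196 kb with a median width of 328 bp, and replicate 2 covered 72.3 kb with a median of 437 bp. The median was thus largest in the shortest list, although replicate 2 peaks were the narrower ones where both replicates had a peak. The only measurement per peak is a q-value, a p-value from the peak caller after correction for multiple testing. It becomes smaller both with stronger enrichment over the control and with deeper sequencing. Median q on V was 3.04e-06 in the combined list, 3.85e-06 in replicate 1 and 3.47e-08 in replicate 2. Width and significance went together: Spearman's rho between width and −log10 q was 0.79 across the 604 peaks, a description over neighbouring regions of 1 list. Of the 39 peaks wider than 1000 bp, 36 overlapped a peak of both replicates. Among combined-list peaks of every width on all chromosomes, 21.2% did. The share among wide peaks of the other chromosomes was not computed, and a wide peak meets an overlap of 1 bp more easily. On V, 10 peaks were narrower than 50 bp.

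The share of V was smaller among well-ranked peaks than among the weakest. V gave 13 of the 100 best peaks of the combined list (13%, 95% Wilson interval 7.76 to 21%), an interval that includes its 16% of the whole list. At ranks 101 to 500 it gave 47 of 400 (11.8%, 8.95 to 15.3%). Among the weakest 941 peaks it gave 188 (20.0%, 17.5 to 22.7%). The intervals cover counting error only and take peaks as independent, although neighbouring peaks lie close together. Missing from the combined list are 34 regions that were among the 50 best of a replicate, 2 of them on V. The ranks of the list leave these out.

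The main feature of V was a stretch of 2 Mb near its right end, from 18 to 20 Mb. This window is the fullest pair of neighbouring 1 Mb bins on V and was chosen after the counts were seen, so its values are a description. It makes up 9.60% of the span and held 135 of the 604 combined-list peaks (22.4%, 19.2 to 25.8%). In replicate 1 it held 107 of 424 (25.2%, 21.3 to 29.6%), and in replicate 2 it held 55 of 115 (47.8%, 38.9 to 56.9%). Per Mb, the combined list had 67.5 peaks inside the window and 24.9 outside it. The contrast was wider in replicate 2, with 27.5 peaks per Mb inside and 3.18 outside. Of the bases covered on V, 28% lay in the window in the combined list, 32.8% in replicate 1 and 56.3% in replicate 2.

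Outside the window, every full bin of V held fewer peaks than either bin of the window. The 18 other full 1 Mb bins held 15 to 38 combined-list peaks each (median 22.5), against 57 from 18 to 19 Mb and 78 from 19 to 20 Mb. In replicate 1, the same 18 bins held 7 to 29 peaks (median 15.5), against 43 and 64. In replicate 2 they held 0 to 8 (median 2.5), against 19 and 36. The window was chosen by these combined-list counts, so the gap between its bins and the others is no separate result. The replicate lists are no independent check. On V, 388 of 424 replicate 1 peaks and 113 of 115 replicate 2 peaks overlapped a combined-list peak. The bin from 16 to 17 Mb had 0 replicate 2 peaks, 11 of replicate 1 and 20 of the combined list. On the far left, the bin from 0 to 1 Mb held 35, 29 and 8 peaks in the combined list, replicate 1 and replicate 2, the largest replicate 2 count outside the window. The last bin, from 20 Mb on, is shorter and held 33, 23 and 4.

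**Figure D1:**
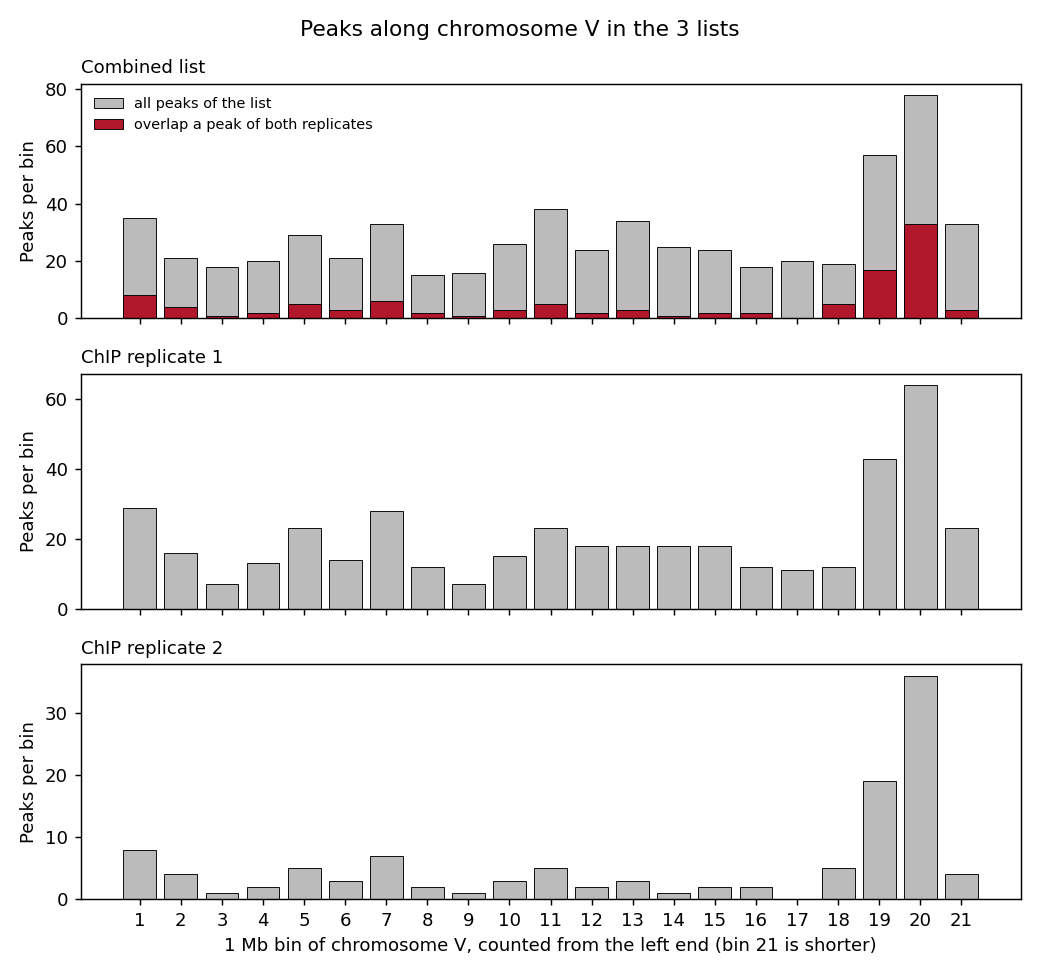
Number of peaks (y axis) in each 1 Mb bin of chromosome V from left to right (x axis) in the combined list, ChIP replicate 1 and ChIP replicate 2; the red part of the upper panel counts peaks that overlap a peak of both replicates. Bins 19 and 20, from 18 to 20 Mb, are the fullest in each list, with 57 and 78 combined-list peaks.

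In the combined list and in replicate 1, the most significant region of V lay in the stretch from 18 to 20 Mb; in replicate 2 the best peak lay to its right, from 20099352 to 20101440. Among the 20 combined-list peaks on V with the smallest q-values that overlap a peak in both replicates, 17 lay in the window. Of the 13 V peaks among the 100 best of the whole list, 12 lay there. These 20 peaks were 741 to 3401 bp wide (median 1736 bp) and held places 10 to 149 in the combined list, 21 to 178 in replicate 1 and 42 to 217 in replicate 2. For the other chromosomes the same count, the most of the 20 best supported peaks in any neighbouring pair of 1 Mb bins, was 14 on III, 10 on IV, 9 on I, 7 on II and 4 on X; these values were not tested against each other. By the share of all combined-list peaks in the fullest pair of bins, V with 22.4% lay below I with 24.6% and IV with 23.1%, and above III with 19.4%, II with 19% and X with 15.1%. These shares are for unlike parts of the chromosomes. A pair of bins made up 9.60% of the span of V, 13.3% of I and 11.5% of IV. It made up 14.5% of III, 13.1% of II and 11.4% of X.

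The best combined-list region of V was a close pair of peaks. The first ran from 19629319 to 19630918 (1600 bp), with q = 1.97e-248 in the combined list, 2.12e-202 in replicate 1 and 1.14e-88 in replicate 2. The second ran from 19634901 to 19636918 (2018 bp), with q = 1.76e-234, 3.46e-184 and 3.47e-79 in the same order. Both peaks were narrower in each replicate than in the combined list. A further strong peak lay to their right, from 19686210 to 19687851, with q = 2.15e-181 in the combined list, 3.31e-129 in replicate 1 and 5.61e-65 in replicate 2.

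A dense core lay from 18.9 to 19.2 Mb, the run of 100 kb bins with at least 10 combined-list peaks each around the fullest one. These 300 kb held 50 combined-list peaks, 47 of replicate 1 and 27 of replicate 2, and 12 of the 20 best supported peaks. Of the 50, 24 overlapped a peak of both replicates (48%, 34.8 to 61.5%), and together the 50 covered 35.1 kb. The fullest 100 kb of V in all 3 lists ran from 19 to 19.1 Mb, with 23 combined-list peaks, 21 of replicate 1 and 13 of replicate 2; no 100 kb outside the window held more than 14, 11 and 5. The strongest member of the core in the combined list ran from 19112035 to 19114750 (2716 bp), with q = 4.32e-197 there, 7.91e-146 in replicate 1 and 3.05e-67 in replicate 2. It was the fourth widest peak on V. Next came 19026200 to 19028592, with q = 1.26e-163, 1.37e-117 and 1.09e-55. The third, from 18983787 to 18987011, had q = 1.18e-160 and was 3225 bp wide in the combined list, but each replicate listed it as 2 peaks. The best of these had q = 1.11e-83 in replicate 1 and 3.76e-27 in replicate 2.

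The window was itself uneven. From 19.2 to 19.6 Mb the counts fell, and the 100 kb from 19.4 to 19.5 Mb held 0 peaks in each of the 3 lists. From 19.6 to 19.7 Mb, around the best pair, there were 14 combined-list peaks, 10 of replicate 1 and 5 of replicate 2. To the left of the core, the strongest peak lay from 18628326 to 18630341, with q = 3.91e-142 in the combined list, 2.43e-114 in replicate 1 and 5.07e-41 in replicate 2. It had a weaker neighbour from 18631546 to 18632797 (q = 8.15e-82, 5.60e-51 and 1.77e-30), so here too strong peaks lay side by side.

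**Figure D2:**
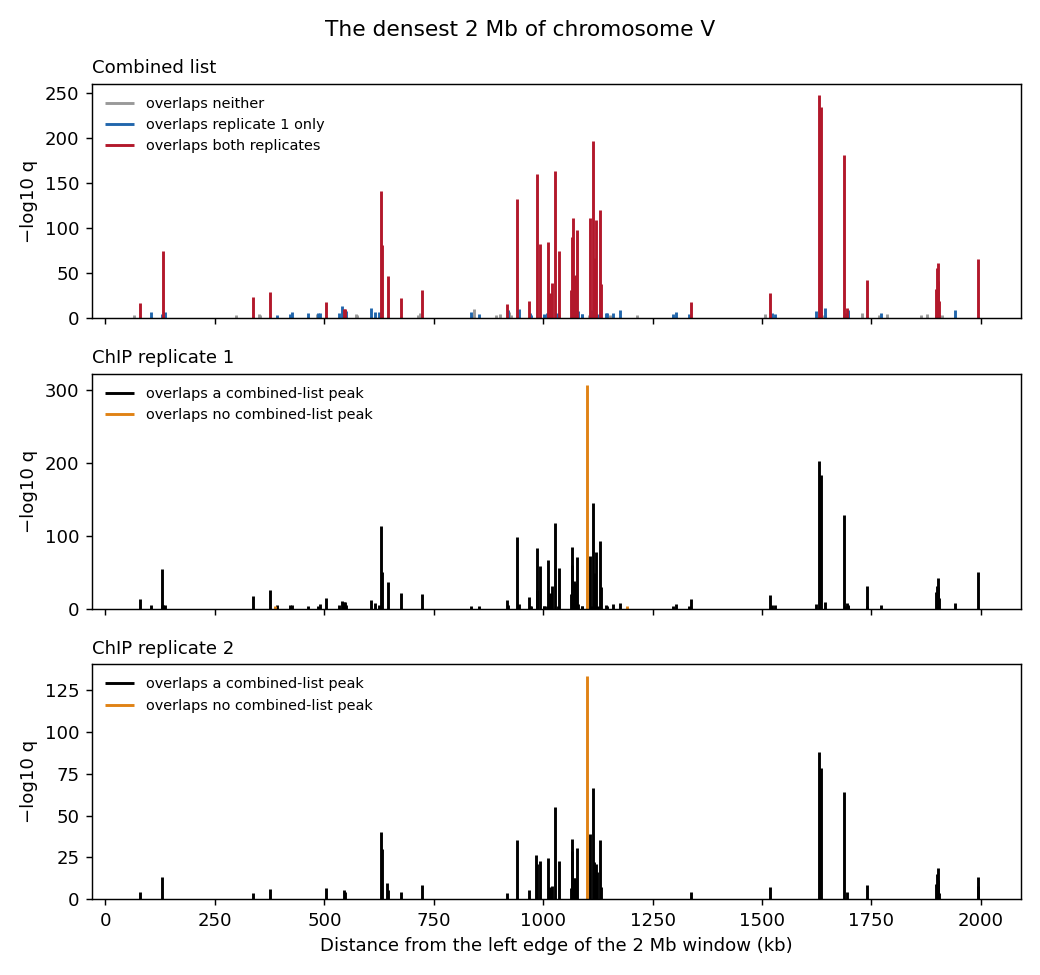
−log10 q (y axis) of each peak in the 2 Mb from 18 to 20 Mb of chromosome V, by distance in kb from the left edge (x axis), in the combined list, ChIP replicate 1 and ChIP replicate 2. Strong peaks stand in a core about the middle and in a group near 1630 kb in all 3 panels, and the tallest line of both replicates, in orange, has no counterpart in the combined list.

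The strongest V region common to both replicates was missing from the combined list. In replicate 1 it ran from 19098951 to 19102455 (3505 bp, q = 9.21e-307, place 4 of the whole list). In replicate 2 it ran from 19098814 to 19102421 (3608 bp, q = 2.57e-134, place 22). The nearest combined-list peak, from 19104393 to 19104415, began 1937 bp beyond the replicate 1 peak and had q = 2.73e-04. The region lay in the core, between the strong peaks at 19076218 and 19106510, so the combined list had its best-supported V stretch without its strongest member. Another strong region appeared in replicate 2 only, from 20099352 to 20101440 (2089 bp, q = 9.49e-173, place 10), the best replicate 2 peak on V. The nearest replicate 1 peak lay 11821 bp away with q = 2.44e-06, and the nearest combined-list peak lay 9204 bp away with q = 4.40e-05. Such gaps were not limited to V. Of the regions among the 50 best of a replicate, 34 were absent from the combined list over all chromosomes, and these 2 were the ones on V. The number of distinct regions looked at was not counted, so no share is given. On V, peaks among the 50 best held places 4, 21, 25 and 41 in replicate 1 and 10, 22, 42 and 44 in replicate 2. The 2 absent regions were place 4 of replicate 1, which is place 22 of replicate 2, and place 10 of replicate 2. Why they are missing was not tested.

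Outside the window, strong supported regions were few and scattered. Of the 20 best supported peaks, 3 lay there. The first, on the left arm from 1494888 to 1496418 (1531 bp), had q = 4.70e-108 in the combined list, 1.55e-76 in replicate 1 and 5.27e-31 in replicate 2. The second, from 6226469 to 6229869, was the widest combined-list peak on V (3401 bp) and had q = 1.07e-80, 5.42e-57 and 3.90e-18. The third, in the middle of V from 9342962 to 9344812, had q = 9.74e-78, 1.49e-54 and 2.47e-21. In each of them the combined list had the smallest q-value and replicate 2 the largest, which was so for all 20 best supported peaks.

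The widest peak also had a wide neighbour. The peak from 6222838 to 6226230 (3393 bp, q = 5.17e-49) was the second widest on V and took in 3 replicate 1 peaks and 1 replicate 2 peak. The best of these had q = 8.25e-24 in replicate 1 and 1.15e-11 in replicate 2, weaker than the counterparts of its neighbour. The next supported regions outside the window, named after their values were seen, included 14945146 to 14946256 (q = 3.00e-72, 1.89e-50 and 1.99e-29) and 9730672 to 9732195 (q = 1.54e-71, 1.98e-52 and 1.42e-20). Near the left tip, the peak from 43020 to 43621 had q = 1.66e-50, 3.10e-34 and 2.16e-10. The 10 best supported regions outside the window thus lay on the left arm and in the middle of V.

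**Figure D3:**
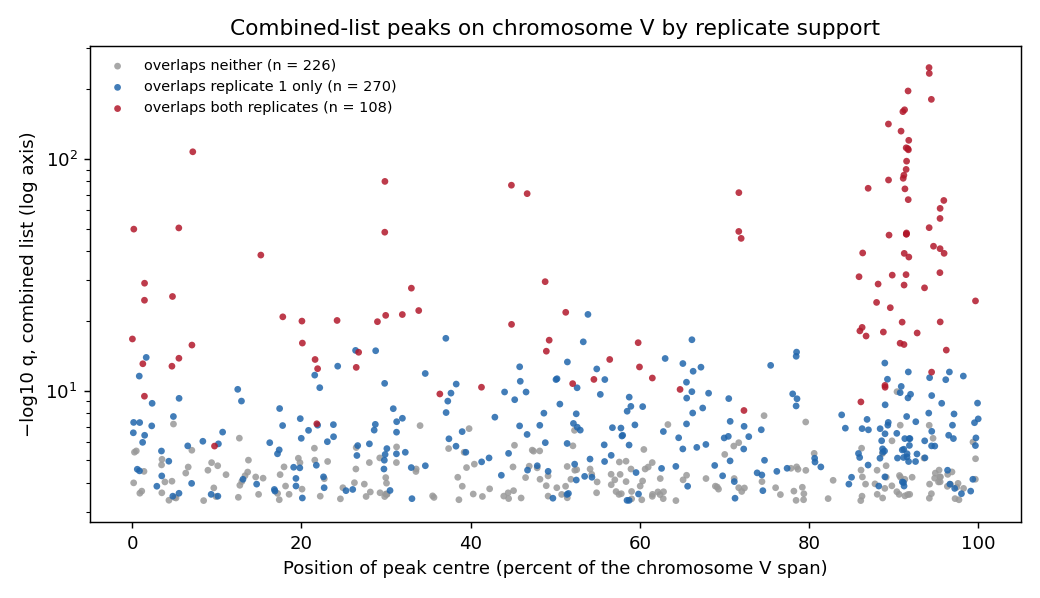
−log10 q of the 604 combined-list peaks on chromosome V (y axis, log scale) by position of the peak centre as percent of the span (x axis), coloured by overlap with the replicates. The 108 peaks that overlap both replicates reach their highest values near the right end, and the 226 that overlap neither stay low throughout.

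A minority of the combined-list peaks on V overlapped a peak of both replicates. Of the 604, 108 overlapped a peak of both replicates (17.9%, 15 to 21.1%), against 21.2% over all chromosomes of the list. Another 270 overlapped replicate 1 only (44.7%, 40.8 to 48.7%), 0 overlapped replicate 2 only (0 to 0.632%), and 226 overlapped neither (37.4%, 33.6 to 41.3%), against 32.9% over all chromosomes. On the other chromosomes together, 690 of 3162 were in both (21.8%, 20.4 to 23.3%). The share on V was lower than that of the others pooled (two-sided Fisher's exact test over peaks, p = 0.0298, adjusted p = 0.0298 over 3 tests). Peaks lie in clusters and are not independent, so this p-value cannot be taken at face value. By chromosome, the shares were 19.5% on X and 19.7% on II, both inside the interval of V. They were 21.7% on I, 22.8% on III and 23.4% on IV. No chromosome was tested singly against V. The shares in neither replicate were 35.1% on X and 34.8% on II, also inside the interval of V. They were 32.9% on I, 31.9% on IV and 28.7% on III. X also had 0 peaks in replicate 2 only. Among the 1883 best-ranked peaks of the list the direction turned, V having 43.5% and the others 41.8% (Fisher's exact test, adjusted p = 0.63). When sharing required centres within 200 bp, V had 15.4% and the others 17.8% (Fisher's exact test, adjusted p = 0.16). Without the window from 18 to 20 Mb, V had 58 of 469 (12.4%, 9.69 to 15.7%). That stretch, with 50 of its 135 peaks in both replicates (37.0%), was taken from V only, and the other chromosomes kept their fullest bins. The lower share was thus set by the choice of stretch and is no further test.

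Supported peaks were broad and highly significant, and unsupported ones were narrow and near the limit of the list. The 108 in both replicates had a median q of 1.82e-28 and a median width of 785 bp. The 270 in replicate 1 only had 5.96e-07 and 326 bp, and the 226 in neither had 7.47e-05 and 241 bp. The other chromosomes together had the same order, so it is not particular to V. Their medians were 1.21e-29 and 819 bp in both, 5.79e-08 and 343 bp in replicate 1 only, and 5.85e-05 and 232 bp in neither. A wide peak also meets an overlap of 1 bp more easily, so the contrast follows in part from the definition of support. The 108 peaks made up 39.5% of the bases covered on V and the 226 made up 21.8%. With V peaks ranked by q and cut into 4 equal parts of 151, the share in both replicates was 68.2% (60.4 to 75.1%) in the best part and 3.31% (1.42 to 7.52%) in the next. It was 0 of 151 in each of the last parts (0 to 2.48%). The share in neither rose in the same order, from 0.662% to 16.6%, 57.0% and 75.5%. The weakest supported peak, from 2030991 to 2031257, had q = 1.70e-06 and place 2092.

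**Figure D4:**
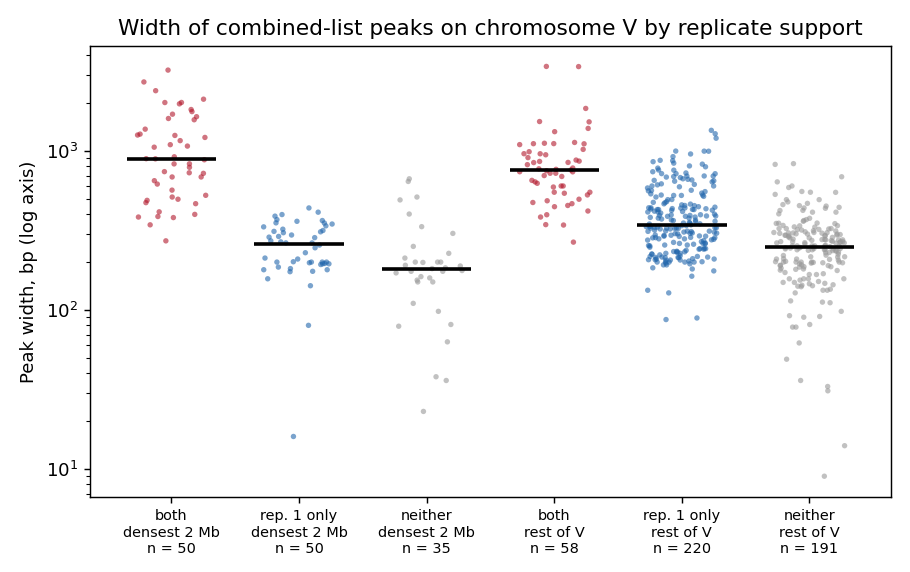
Width in bp (y axis, log scale) of the combined-list peaks on chromosome V, split by overlap with the replicates and by position in the 2 Mb from 18 to 20 Mb or elsewhere (x axis); points are peaks and bars are medians. Peaks in both replicates are the widest, with medians of 886 bp in the window and 755 bp elsewhere.

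Some peaks at the edges of these classes deserve their values. The best combined-list peak on V with no replicate counterpart ran from 18840617 to 18841284 (668 bp, q = 1.24e-10, place 1166). It was followed by 15566425 to 15566836 (q = 1.56e-08) and 16592272 to 16592820 (q = 4.69e-08). All 3 were weaker than the best peaks found in replicate 1 only, which were named after their values were seen. The first of those ran from 11228421 to 11229083, with q = 4.58e-22 in the combined list and 2.41e-18 in replicate 1. At the limit of the list, the 3 peaks with the largest q-values on V (1763148 to 1763237, 13395429 to 13395490 and 17947925 to 17948068) had q = 4.39e-04 and widths of 90, 62 and 144 bp. None of these overlapped a replicate peak.

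The right outer part of V, the last 25% of its span, was richer in supported peaks than the rest of the chromosome. It held 58 of the 108 peaks found in both replicates (53.7%, 44.3 to 62.8%) and 153 of the other 496 (30.8%, 26.9 to 35%; two-sided Fisher's exact test, adjusted p = 3.47e-05 over 3 tests). The window from 18 to 20 Mb lies wholly in this part and held 50 of the 108. Without the window's peaks, the shares were 8 of 58 (13.8%) and 68 of 411 (16.5%; Fisher's exact test, adjusted p = 0.71), with the opposite direction. The window was chosen as the fullest stretch after the counts were seen. Leaving it out lowers the right-hand shares by that choice, so this is no separate test. Supported peaks in the right outer part had a median q of 3.18e-42, against 4.69e-20 in the middle and 1.91e-17 in the left outer part. Their median widths were 870, 739 and 781 bp. Peaks in neither replicate had nearly the same median q in all 3 parts, with 7.82e-05 on the right, 7.88e-05 in the middle and 6.38e-05 on the left. Because peaks lie in clusters, these tests over peaks give p-values that are too small.

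Within the window itself, support was higher than elsewhere on V. There, 50 of 135 peaks were in both replicates (37.0%, 29.4 to 45.4%), 50 were in replicate 1 only and 35 were in neither. Supported peaks in the window had a median q of 2.18e-48 and a median width of 886 bp, against 9.08e-20 and 755 bp for the 58 elsewhere. Peaks in replicate 1 only went the other way in width, with a median of 260 bp in the window and 341 bp elsewhere, at median q-values of 7.10e-07 and 5.46e-07. Those in neither had 182 bp in the window and 250 bp elsewhere. The greater width in the window was thus found in the supported peaks and not in the others.

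Replicate 2 peaks on V were nearly all found again in replicate 1. Of the 115, 114 overlapped a replicate 1 peak (99.1%, 95.2 to 99.8%), against 94.7% over all chromosomes of that list. On the other chromosomes it was 744 of 791 (94.1%, 92.2 to 95.5%; two-sided Fisher's exact test, p = 0.0228, adjusted p = 0.0298 over 3 tests). The difference missed the threshold with reciprocal overlap of 50% (79.1% against 75.2%, Fisher's exact test, adjusted p = 0.42) and with replicate 1 cut to the length of replicate 2 (82.6% against 81.4%, Fisher's exact test, adjusted p = 0.90). It stayed past the threshold with centres within 200 bp (88.7% against 78.4%, Fisher's exact test, adjusted p = 0.0135). The 1 exception on V was the strong peak from 20099352 to 20101440. Of the 424 peaks of replicate 1, 112 were found in replicate 2 (26.4%, 22.4 to 30.8%), against 29.6% over all chromosomes. Inside the window it was 52 of 107 (48.6%, 39.3 to 58.0%) and elsewhere on V 60 of 317 (18.9%, 15 to 23.6%). By q-value, 89 of the best 106 replicate 1 peaks on V were found in replicate 2 (84.0%), then 18, 4 and 1 of the following parts of 106 each. With no read depth in the lists, a region absent from replicate 2 may only have gone undetected.

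Where both replicates had a peak, the order of significance was similar. On V, 105 peaks matched one to one. Their median −log10 q was 20.4 in replicate 1 and 6.81 in replicate 2, and 3 of them had the smaller q-value in replicate 2. Divided by that of replicate 1, the −log10 q of replicate 2 had a median of 0.424 (quartiles 0.334 and 0.5). Across the 105 peaks Spearman's rho was 0.88 and Pearson's r was 0.99, a description over peaks that share their 2 libraries. Within the window rho was 0.96 over 47 peaks, and elsewhere it was 0.75 over 58. In replicate 1, −log10 q of these peaks ran from 7.87 to 306 in the window and from 3.42 to 75.8 elsewhere. A wider range alone can raise rho, so these values do not compare agreement. Centres lay a median of 52 bp apart (quartiles 26 and 93 bp), and 102 of the 105 were within 200 bp. The pairs were matched by overlap, so close centres follow in part from the matching. Replicate 2 peaks were narrower, with a median width of 0.729 of the replicate 1 peak, and 80 of them (76.2%) lay wholly inside it.

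**Figure D5:**
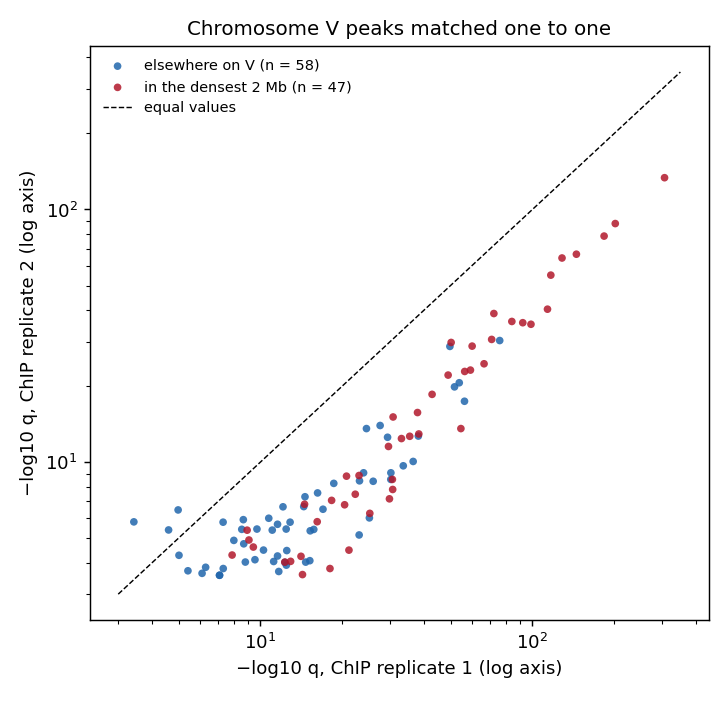
−log10 q in ChIP replicate 1 (x axis, log scale) and ChIP replicate 2 (y axis, log scale) for the 105 chromosome V peaks matched one to one, with those from 18 to 20 Mb in red; the dashed line marks equal values. All but 3 points lie below the line, and the peaks with the highest values in both replicates are those of the window.

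The extreme pairs differed in kind. The highest ratio, 1.69, belonged to a peak on the left arm with q = 3.76e-04 in replicate 1 (1153628 to 1153827) and 1.59e-06 in replicate 2 (1153681 to 1154374). The lowest, 0.210, belonged to a peak in the window with q = 9.64e-19 in replicate 1 (18337654 to 18338088) and 1.62e-04 in replicate 2 (18337747 to 18337967). Against the combined list, 366 replicate 1 peaks matched one to one; the combined list had the smaller q-value in 314 of them, with a median ratio of 1.26 in −log10 q. For replicate 2 it was 103 of 103, with a median ratio of 3.29. Combined-list peaks were a median of 1.09 times as wide as the replicate 1 peak and 1.53 times as wide as the replicate 2 peak. On V, 10 combined-list peaks took in 2 or more replicate 1 peaks, and 5 took in 2 replicate 2 peaks.

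Of the 424 replicate 1 peaks on V, 36 had no counterpart in the combined list, which leaves 91.5% found there, against 92.1% on the other chromosomes; over all chromosomes 7.96% had none. With 1 exception they were weak: the strong region at 19098951 had q = 9.21e-307, and the next had q = 2.65e-06 (1192452 to 1192816). The median width of the 36 was 234 bp, and 35 of them were not found in replicate 2. The next after these were 11075686 to 11075953 (q = 7.01e-06), 9394973 to 9395401 (q = 8.46e-06) and 18387569 to 18387767 (q = 3.31e-05). Replicate 2 had 2 such peaks among its 115 on V, against 4.75% over all chromosomes, and they were the strong regions at 19098814 and 20099352. The regions of replicate 2 that the combined list lacked were thus its best 2 on V.

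Peaks on V lay in groups, most densely in the window. Of the 604, 296 had another within 5 kb (49%, 45.0 to 53.0%), with 97 of 135 in the window (71.9%, 63.7 to 78.8%) and 199 of 469 elsewhere (42.4%, 38 to 46.9%). The median distance between neighbouring peaks was 4045 bp in the window and 21257 bp elsewhere. Joining peaks under 5 kb apart left 414 regions, of which 308 were single peaks and 68 were pairs. The largest ran from 19104393 to 19132415 (28023 bp) and held 10 combined-list peaks, 10 of replicate 1 and 7 of replicate 2; 6 of its peaks were in both replicates and 4 were among the 20 best. The strong region missing from the combined list lay 1937 bp to its left. The second, from 19063174 to 19078933 (15760 bp), held 8 combined-list peaks, 7 of them in both replicates. The third, from 19896647 to 19910234, also held 8, with 5 in both and 3 in neither. All 3 lay in the window.

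Long stretches of V were without any peak. The longest in the combined list ran from 2314783 to 2602583 (287801 bp), the next from 1496419 to 1743522 (247104 bp) and the third from 17267673 to 17477999 (210327 bp). Both replicates also had 0 peaks in each of these stretches. The second begins at the right edge of the strongest supported peak of the left arm, at 1494888. Of the 209 bins of 100 kb on V, 25 had no combined-list peak, 48 none of replicate 1 and 157 none of replicate 2. In the window, 1, 2 and 5 of the 20 bins were empty in the same order. Whether reads could be mapped in the empty stretches was not tested, since the lists hold no read coverage.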

How the data were processed

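Per the file headers, the authors called peaks with PeakSeq on WormBase build WS180. The deposited measurement is 1 q-value per peak, a p-value corrected for multiple testing; the lists hold no read counts or heights, so depth is unknown. How the combined list was made, the aligner, the filters and the q-value limit are not given in the sources used. Samples were grouped by title; nothing says that the 2 ChIP samples came from separate cultures. The members, lists and tests were chosen with earlier results of these data known. −log10 q was computed from the deposited text. An overlap of 1 bp or more counted as sharing. Spans run from base 1 to the last peak end in any list. Shares have 95% Wilson intervals, which cover counting error only. There were 3 Fisher's exact tests with Benjamini-Hochberg adjustment and a threshold of 0.05. The overlap rules were tested on simulated peaks. Named regions are the 20 best supported, the 5 widest, the 5 best of each replicate absent from the combined list, the 3 best without replicate overlap, the 3 with the largest q, the 3 fullest joined regions and the 3 longest gaps. Alternatives changed the overlap rule, the list, the joining of peaks and the stretch of V. Sequences and genes under the peaks are not analysed here, for want of a genome of build WS180; the gene table (WBcel235) gave chromosomes only. Python 3.11.15, NumPy 2.4.6, SciPy 1.17.1 and Matplotlib 3.10.9 were used.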

Additional observations from a re-analysis of the deposited data

How the results depend on the processing

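Of 16 alternatives to the 3 tests, 11 kept the direction and the side of the threshold. The share of V peaks found in both replicates (17.9%) was 15.4% with centres within 200 bp, no longer past the threshold, and turned above the other chromosomes with 43.5% in the 1883 best-ranked peaks, where weaker peaks are left out. The share of replicate 2 peaks found in replicate 1 (99.1%) was 79.1% with reciprocal overlap and 82.6% with replicate 1 cut to equal length, neither past the threshold. The share of supported peaks in the right outer part turned below that of the others, with 13.8%, without 18 to 20 Mb. That stretch lies wholly in the right outer part, so its removal lowers the share by choice and is no separate test. The alternatives without that stretch and with missing best replicate peaks restored were chosen after seeing the data. For the share found in both replicates, the alternative without that stretch is counted among the 11. It took the best-supported stretch from V only, so its lower share was set by that choice. Untested values moved as follows. The 604 peaks became 246 in the 1883 best-ranked, and 115 to 424 in a single replicate's list. The right outer part's share (34.9% of all V peaks) was 36.6 to 55.7% in a single replicate, 30.4% with peaks under 5 kb apart joined and 16.2% without 18 to 20 Mb. A replicate was left out by taking the list of the other. No paired analysis was possible because only the ChIP group has peak lists, and the inputs with the same numbers have none used here. Unknown depth limits every statement on a region found in 1 list.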
